A study of Mus musculus with 2 samples.

Results

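The genes described here are 37 mouse genes of the apoptosis and p53 pathways, chosen by name from the 43346 annotated genes that the deposited gene tables list. They comprise the p53 family members Trp53 and Trp73, the p53 inhibitors Mdm2 and Mdm4, 6 p53 target genes, 15 genes of the Bcl2 family, the apoptosome genes Apaf1 and Cycs, 4 caspases, 3 inhibitors of apoptosis, Diablo, and the death receptor genes Fas and Fadd. Total RNA was measured in the hindbrain of healthy wild-type B6NCrl embryos at embryonic day 10.5. There was 1 group of 2 libraries, and neither a second stage nor a treatment to compare with. Replicate 1 was made from a pool of 69 embryos and replicate 2 from a pool of 51 embryos, with both sexes in each pool. One donor label is shared by the pools, and no label says whether they came from separate litters, so the spread between libraries may be in part technical. Each library started from 10 ng of RNA longer than 200 nucleotides with spike-in RNAs added. Levels are in TPM, the authors' length-corrected share of all transcripts, and each difference between pools is a log2 ratio of scaled counts, replicate 1 over replicate 2.

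Apoptosis is carried out by proteases, the caspases, which are kept inactive in living cells. In the mitochondrial route, BAX and BAK1 open the outer mitochondrial membrane and release cytochrome c, which joins APAF1 to activate caspase 9, while BCL2, BCL-XL and MCL1 hold BAX and BAK1 back and the BH3-only proteins relieve that hold. p53, kept low by MDM2 and MDM4, raises transcription of several BH3-only genes and of growth-arrest genes after stress, and its excess in embryos without Mdm2 is lethal. In the chick hindbrain apoptosis is known to remove neural crest precursors, and mouse embryos that lack Apaf1 or Casp9 develop an overgrown brain.

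E10.5 hindbrain contained transcripts for nearly the whole mitochondrial pathway and hardly any of the death receptor gene Fas. Other death receptor genes outside the 37, named after their values were seen, were higher. Tnfrsf1a measured 21.5 TPM in replicate 1 and 22.9 TPM in replicate 2, Tnfrsf21 24.2 and 22.7 TPM, and Tnfrsf10b 2.40 and 3.16 TPM. Of the 37 genes, 35 reached 1 TPM in both libraries, against 58.8% of 21461 protein-coding nuclear genes. The 2 below that level were Fas, with 0.24 and 0.12 TPM in replicates 1 and 2 (9 and 4 counts), and Hrk, a BH3-only gene known from neurons deprived of growth factor, with 0.20 and 0.31 TPM (29 and 40 counts). At 24 genes the level was at least 10 TPM in both libraries, and at 9 it was at least 50 TPM. The 37 levels had medians of 15.4 TPM (replicate 1) and 15.7 TPM (replicate 2), below the medians of 19.1 and 20.0 TPM over the protein-coding genes detected in both. Summed over the 37 genes, the level was 1207 TPM for replicate 1 and 1260 TPM for replicate 2. Because TPM includes the spike-ins, whose share differed as given below, these sums do not show a higher level in replicate 2. In the order of mean level, 19 of the 36 pairs of neighbouring genes overlapped in their library values, so their order is not resolved.

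**Figure D1:**
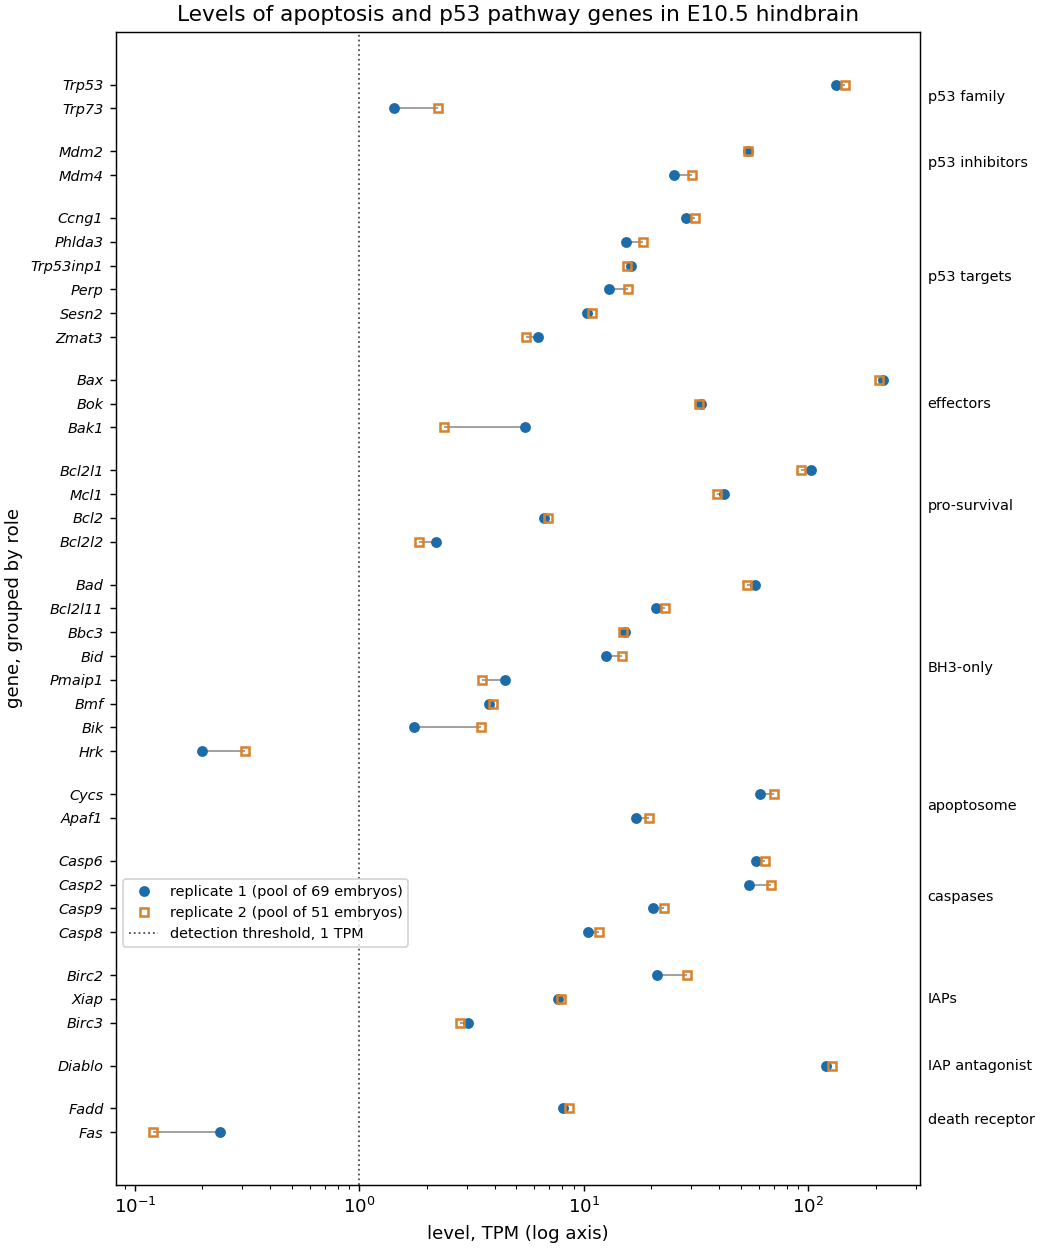
TPM of the 37 genes on a log axis, grouped by role and ordered by mean level within a role; filled circles are replicate 1, open squares replicate 2, and the dotted line marks 1 TPM. Bax, Trp53 and Diablo lie furthest right, Hrk and Fas lie left of the line, and Bak1, Bik and Fas show the widest gaps between the libraries.

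Depth was 38170090 estimated counts over annotated genes in replicate 1 and 36382245 in replicate 2, so that 1 count on a transcript of 1 kb was worth 0.037 and 0.041 TPM. Of 7 hindbrain markers, 6 were above 1 TPM in both libraries, led by Hoxa2, Irx3 and Hoxb2; the exception was Egr2. Marker genes of several cell types differed in level between the pools. All 12 markers of postmitotic neurons were detected, none was at 0, and together they held 2425 TPM (replicate 1) and 1583 TPM (replicate 2), with a median log2 ratio of 0.83, or 0.01 under spike-in scaling. The 12 cell cycle genes, also all detected, summed to 2318 and 3099 TPM, with a median log2 ratio of -0.34. The 5 macrophage markers summed to 55.3 and 36.0 TPM, with a median of 0.58. Medians of other cell types were smaller in size, at 0.18 for neural progenitors and 0.15 for mesenchyme. They were -0.09 for endothelium and -0.17 for red blood cells, whose 6 markers summed to 14404 and 16294 TPM. The 7 hindbrain markers had a median of 0.25. In such bulk tissue, fewer cells of a type and less RNA per cell cannot be told apart. The spike-in share of TPM was 13.0% (replicate 1) and 7.82% (replicate 2). This smaller share alone raised every gene's TPM in replicate 2 relative to replicate 1, by 0.08 on the log2 scale. On deposited TPM the median log2 ratio of the 35 detected genes was -0.08, against 0.00 on scaled counts. TPM pairs and sums carry this offset, so small differences between them can run opposite to the log2 ratios. Scaling to the spike-ins would move the median log2 ratio of all tested genes by -0.81. All ratios below are therefore relative to the bulk of genes.

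Trp53 was abundant in these untreated embryos. The gene for p53, at chr11:69580359-69591873 on the plus strand of mm10, measured 133 TPM in replicate 1 and 146 TPM in replicate 2, higher than 94.8% of protein-coding genes. Its log2 ratio between pools was -0.04 (95% counting interval -0.09 to 0.01), so the pools did not differ beyond counting error. That interval, here and below, is an exact binomial one on the 2 counts and covers counting error only.

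Trp53 transcripts were split between 2 C-terminal ends. The main form, with 387 codons, held 77.1% of the gene's TPM in replicate 1 and 76.7% in replicate 2. The alternative form, with 378 codons, held 16.7% and 17.1%. The alternative form enters its last coding exon 96 bases earlier and ends in a different stop codon, which replaces the basic end of p53 known to bind DNA without sequence preference. The ends are shown because they define the 2 forms; both come from the plus strand of chromosome 11 in GENCODE M21 (mm10), 18 bases of the shared exon are in lower case, and the last coding exon through the stop codon is in capitals.
Trp53 main form: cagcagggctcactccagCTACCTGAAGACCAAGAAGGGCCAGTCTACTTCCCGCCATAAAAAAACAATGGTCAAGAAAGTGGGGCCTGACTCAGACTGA
Trp53 alternative form: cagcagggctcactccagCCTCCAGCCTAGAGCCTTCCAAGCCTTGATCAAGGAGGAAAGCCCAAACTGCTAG
The share of the alternative end was nearly the same by the authors' posterior mean TPM, at 16.0% and 16.4%. The posterior mean did not hold the main form apart from a near-identical one that adds 3 codons: it gave the main form 41.4 and 73.5 TPM, and the near-identical one 64.0 and 39.8 TPM.

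Trp73 had the lowest mean level of the 35 detected genes, though its library values overlapped those of Bcl2l2. Its 2 forms did not keep the same proportion in the pools. Trp73 encodes p73, whose full-length TA form activates p53 target genes and whose shorter ΔN form, made from an internal promoter, blocks them and is known to keep developing neurons alive. The gene measured 1.43 TPM in replicate 1 and 2.24 TPM in replicate 2 (186 and 257 counts, log2 ratio -0.54, interval -0.82 to -0.27). The TA form, of 638 codons, measured 0.75 and 0.60 TPM (101 and 72.5 counts). The ΔN form, of 590 codons, measured 0.68 TPM in replicate 1 and 1.64 TPM in replicate 2 (85.3 and 185 counts). The ΔN form thus made up 47.6% of Trp73 TPM in replicate 1 and 73.2% in replicate 2, while the TA form was close in both. On counts, the log2 ratio of the ΔN form was -1.18 (interval -1.59 to -0.82), whereas that of the TA form was 0.40 (interval -0.04 to 0.87). The authors' deposited bounds on the ΔN level, 0.25 to 1.21 TPM and 1.13 to 2.11 TPM, overlapped slightly.

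The internal promoter of the ΔN form is shown because it separates the 2 forms. RefSeq (GRCm38.p6) places its start 42702 bases downstream of the TA start, on the minus strand at chr4:154097173, the same base as the start of the ΔN form in M21. The 80 bases before it (chr4:154097173-154097253) are in lower case, and the start itself is the capital.
Trp73 internal promoter: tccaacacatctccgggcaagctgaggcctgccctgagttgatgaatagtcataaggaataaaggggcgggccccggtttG
Trp73 is known as a marker of Cajal-Retzius neurons in the forebrain; which hindbrain cells held it was not measured.

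The inhibitors of p53 were both well above background. Mdm2, the ubiquitin ligase that degrades p53 and is itself a p53 target, measured 54.0 TPM in replicate 1 and 53.6 TPM in replicate 2 (log2 ratio 0.10). Mdm4, which masks the p53 activation domain, measured 25.3 and 30.4 TPM, with a log2 ratio of -0.33 (interval -0.41 to -0.25). The full-length Mdm2 coding sequence of 489 codons held 70.7% and 66.9% of the gene's TPM, and an Mdm2 transcript annotated for nonsense-mediated decay held 7.06% and 8.42%. The full-length Mdm4 coding sequence, also 489 codons, held only 42.7% and 47.0%, since transcripts with no coding sequence held 37.7% and 43.5%. Those Mdm4 transcripts are short: by counts, which are not corrected for length, the main full-length transcript had a mean share of 85.0%.

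All 6 p53 target genes were detected, at moderate levels. Ccng1, cyclin G1, measured 28.4 TPM in replicate 1 and 31.4 TPM in replicate 2. Phlda3, an inhibitor of AKT signalling, measured 15.4 and 18.3 TPM. Trp53inp1, which acts in autophagy and p53 signalling, measured 16.3 and 15.5 TPM. The other 3 were lower: Perp, a membrane protein of desmosomes, measured 12.9 and 15.7 TPM, Sesn2, a stress-induced inhibitor of mTORC1, measured 10.4 and 10.9 TPM, and Zmat3, an RNA-binding splicing regulator, measured 6.22 and 5.55 TPM. Their log2 ratios ran from -0.21 (Perp) to 0.18 (Zmat3), and none reached 1.5-fold.

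Among the effectors, Bax outweighed Bak1 and Bok. Bax, at chr7:45461697-45466898 on the minus strand, was the most abundant of the 37 genes, with 215 TPM in replicate 1 and 206 TPM in replicate 2, higher than 96.8% of protein-coding genes. It made up 84.8% and 85.5% of the summed effector level. Bok, a further pore-forming protein, measured 33.2 and 32.7 TPM. Bak1 measured 5.45 TPM in replicate 1 and 2.38 TPM in replicate 2 (267 and 118 counts), and the deposited bounds, 4.75 to 6.88 TPM and 2.16 to 3.97 TPM, did not overlap. Bak1 was thus both the scarcest effector and the gene with the largest difference between pools among the 35 detected.

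One of the 2 main Bak1 transcript forms carries a microexon that ends the reading frame early. The microexon form has 7 exons, and its exon 5 is 20 bases long (chr17:27021663-27021682, minus strand, mm10), coding in the annotation. Because 20 is not a multiple of 3, the frame shifts after 114 complete codons, and a TGA ends the reading frame at 151 codons, 89 bases before the last exon junction; the annotation labels this form a target of nonsense-mediated decay. The full-length form lacks the microexon and has 209 codons. The sequences are shown because this exon divides the 2 forms: both begin with the last 24 bases of exon 4, the microexon and the stop codon in frame are in capitals, and the second line is the same stretch without the microexon.
Bak1 microexon form: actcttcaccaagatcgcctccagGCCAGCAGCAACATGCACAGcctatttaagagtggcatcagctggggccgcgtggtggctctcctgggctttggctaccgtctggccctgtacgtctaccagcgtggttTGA
Bak1 full-length form: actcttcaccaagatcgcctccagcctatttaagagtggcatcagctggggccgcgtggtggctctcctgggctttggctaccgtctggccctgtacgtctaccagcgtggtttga
As background, mouse neurons are known to include this microexon once the splicing repressor PTBP1 falls, which lowers BAK1 protein and makes them resistant to apoptosis.

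The microexon form measured 3.84 TPM in replicate 1 and 1.47 TPM in replicate 2 (195 and 66.9 counts). The full-length form measured 1.09 and 0.91 TPM (67.6 and 50.6 counts). The microexon form was estimated at 70.6% and 61.8% of the gene's TPM, while a Bak1 transcript listed in the tables but not in M21 held 9.38% and 0.00%. The authors' posterior mean TPM put the share lower, at 63.9% and 45.8%. In replicate 1 the deposited bounds of the 2 forms, 2.91 to 4.48 and 0.64 to 1.69 TPM, did not overlap; in replicate 2, with 0.69 to 2.07 and 0.38 to 1.48 TPM, they did, so which form was larger there is not resolved. Most of the difference between pools lay in the microexon form: its log2 ratio was 1.44 (interval 1.06 to 1.89), against 0.32 (interval -0.21 to 0.89) for the full-length form, and only the second interval included 0. The intervals take the estimated counts as observed and so are too narrow for transcripts that share most of their sequence.

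**Figure D2:**
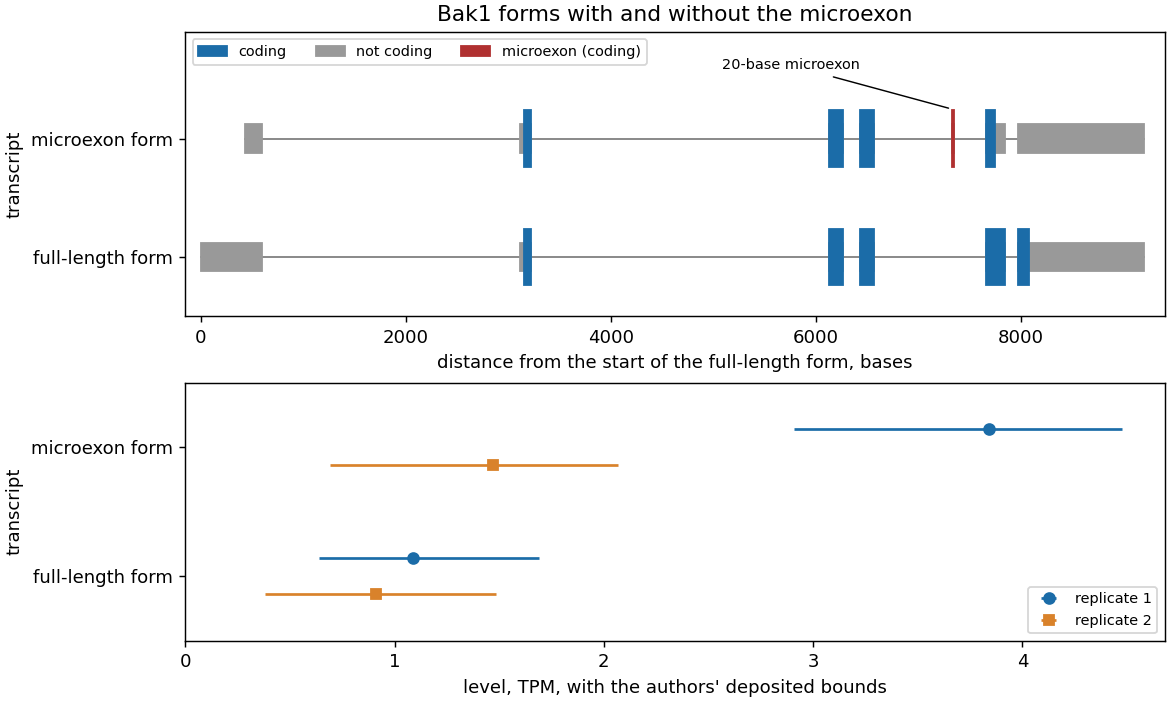
Top, exons of the 2 Bak1 transcripts drawn to scale against distance in bases from the start of the full-length form, with coding parts tall, other parts low and the 20-base microexon in red. Bottom, level of each transcript in TPM for replicate 1 (circles) and replicate 2 (squares) with the authors' deposited bounds; the bounds of the microexon form are apart between libraries and those of the full-length form overlap.

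Several measurements bear on the Bak1 values. The microexon was not counted by itself, and the 2 forms also differ in the length of their first exon, 168 against 599 bases. Ggnbp1 overlaps Bak1 on the opposite strand: it had 132 counts in replicate 1 and 138 in replicate 2, its exons cover exons 1 and 2 and part of exon 4 of the microexon form but neither the microexon nor the exons after it, and strandedness is not given in the sources used here. Adding the counts of both genes, a sum chosen after seeing the data, gave 398 and 256 counts and a log2 ratio of 0.56, below 1.5-fold. Because the Ggnbp1 counts were close between libraries, that sum had to have a smaller ratio than Bak1, whatever the strandedness. Whether reads of 1 gene were assigned to the other was not tested. Postmitotic neuron markers moved the same way between the pools, and Ptbp1 measured 230.5 TPM in replicate 1 and 286 TPM in replicate 2 (log2 ratio -0.25), beside 138 and 124 TPM of its neuronal paralogue Ptbp2 (log2 ratio 0.23). The part that these markers have in the Bak1 difference was not tested.

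The pro-survival genes were led by Bcl2l1, not Bcl2. Bcl2l1, which encodes BCL-XL, measured 102 TPM in replicate 1 and 92.6 TPM in replicate 2. Mcl1, whose protein turns over quickly, measured 42.0 and 39.1 TPM. Bcl2 measured 6.66 and 6.90 TPM, and Bcl2l2, which encodes BCL-W, 2.19 and 1.84 TPM. Bcl2l1 thus held 66.8% and 65.9% of the pro-survival sum of 153 and 141 TPM. The TPM of Bax was 32.3 and 29.8 times that of Bcl2, and 2.10 and 2.22 times that of Bcl2l1. The sum of the 3 effectors was 1.66 times that of the 4 pro-survival genes in replicate 1 and 1.71 times in replicate 2. These are ratios of transcript levels, not of protein.

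Coding forms of the pro-survival genes were steady between pools. The 233-codon sequence of BCL-XL held 86.2% of Bcl2l1 TPM in replicate 1 and 84.3% in replicate 2. Bcl2 was divided between a 236-codon form with 57.5% and 55.7% and a 199-codon form with 42.5% and 44.3%; the shorter one lacks the membrane anchor of the longer. The full-length sequence of Mcl1 held 98.7% and 98.6%.

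Of 8 BH3-only genes, 7 were detected, and their summed level was 117 TPM in each library. Bad, whose protein is held inactive by phosphorylation when growth factors are present, led with 57.9 TPM in replicate 1 and 53.2 TPM in replicate 2. Bcl2l11, which encodes BIM, measured 20.9 and 23.0 TPM. Bbc3, which encodes PUMA and is a p53 target, measured 15.3 and 14.9 TPM. Bid, which links death receptors to mitochondria once caspase 8 has cut it, measured 12.5 and 14.7 TPM. The last 3 detected genes were low: Pmaip1 (NOXA, a p53 target) measured 4.44 and 3.50 TPM, Bmf, known to be tied to the cytoskeleton, 3.77 and 3.95 TPM, and Bik, of the endoplasmic reticulum, 1.75 and 3.47 TPM. Bik rested on 40 and 71 counts, with a log2 ratio of -0.87 (interval -1.50 to -0.33), and its deposited bounds of 1.24 to 2.31 TPM and 2.66 to 4.23 TPM did not overlap.

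BIM is known in 3 splice forms that differ in length and in potency, the shortest being the strongest killer. The longest, of 196 codons, measured 9.42 TPM in replicate 1 and 12.9 TPM in replicate 2, or 45.1% and 56.2% of the gene. The 110-codon sequence held 17.7% and 7.34%. Its main transcript had 239 and 98.1 counts and a log2 ratio of 1.19 (interval 0.86 to 1.56). The deposited bounds of that transcript, 2.09 to 4.53 TPM and 0.53 to 2.73 TPM, overlapped, so by them its difference between pools is not resolved. The 110-codon form was thus lower than the longest in both pools, and nearer to it in replicate 1. A still shorter sequence of 91 codons held 9.78% and 8.56%, and a sequence of 140 codons was at 0.00 TPM in both libraries. Transcripts of Bcl2l11 with no coding sequence held 27.4% and 27.9%. Bad was divided between a 162-codon form with 62.7% and 60.2% and the longest form with 17.9% and 18.2%. A single Bid coding sequence of 195 codons held 98.2% and 97.2%, but of its 2 transcripts one had 511 and 367 counts, whereas the other, annotated for nonsense-mediated decay, had 203 and 398 counts (log2 ratio -1.04, interval -1.30 to -0.80). Bid and Bad each overlap a gene on the opposite strand, Bcl2l13 (4298 and 4733 counts) and Gpr137 (1164 and 837 counts).

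**Figure D3:**
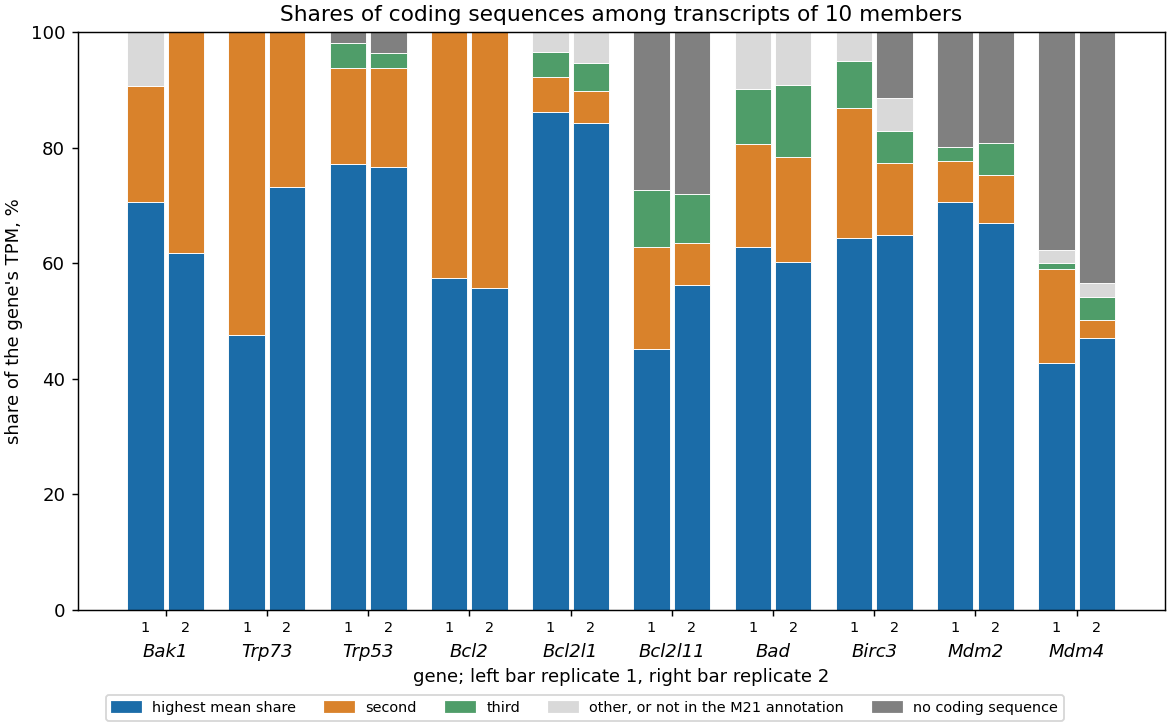
Share of each gene's TPM, in percent, held by its coding sequences in replicate 1 (left bar) and replicate 2 (right bar) for 10 genes; blue, orange and green are the coding sequences ranked by mean share, dark grey is transcripts with no coding sequence and light grey all others. Trp73 and Bak1 change most between bars, while Trp53, Bcl2 and Bcl2l1 stay within a few percent.

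Across the 35 detected genes, transcripts with the same coding sequence were summed. In 15 genes the leading coding sequence held at least 90% of TPM in both libraries, and in 31 it held at least 50%. A second coding sequence reached 10% in both libraries in 6 genes, namely Bad, Bak1, Bcl2, Birc3, Trp53 and Trp73. That of Birc3 is annotated as incomplete and rested on 13.0 counts in replicate 1 and 5.9 in replicate 2. For Bak1, the leading sequence is the form annotated for nonsense-mediated decay. In 12 genes transcripts with no coding sequence held at least 10% in both. Among them, such transcripts of Xiap held 57.9% and 61.5%, and the single retained-intron transcript of Bbc3 held 43.5% and 47.3%.

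The apoptosome and the caspases were present at every step. Cycs, cytochrome c, measured 60.7 TPM in replicate 1 and 69.9 TPM in replicate 2, and Apaf1, the scaffold it joins, measured 17.1 and 19.4 TPM. Casp9, the initiator that APAF1 activates, measured 20.4 and 22.8 TPM. Casp8, the initiator under death receptors, measured 10.4 and 11.7 TPM. Casp6, an executioner, measured 58.5 and 63.9 TPM, and Casp2, which the PIDD1 complex activates, measured 54.2 and 68.2 TPM. Casp2 and Casp6 had the same mean level within their spread, 61.2 ± 9.9 and 61.2 ± 3.8 TPM (SD, n = 2). The 4 caspases summed to 143 TPM in replicate 1 and 167 TPM in replicate 2, and the log2 ratio of Casp2, -0.23 (interval -0.29 to -0.17), was furthest from 0.

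Xiap, Birc2 and Birc3 together were below Diablo, their antagonist, in level. Xiap, which blocks caspases 3, 7 and 9 directly, measured 7.64 TPM in replicate 1 and 7.89 TPM in replicate 2. Birc2 (cIAP1), a ubiquitin ligase of receptor signalling, measured 21.2 and 28.9 TPM, and its relative Birc3 (cIAP2) 3.06 and 2.82 TPM. Diablo, whose protein SMAC leaves mitochondria and displaces these inhibitors, measured 119.6 and 128 TPM, against a sum of 31.9 and 39.6 TPM for these 3 inhibitors. Other genes of the same BIR-domain family were higher: Birc5, described with the further apoptosis genes, measured 270.5 and 331 TPM, above Diablo, and Birc6, a giant ubiquitin-conjugating enzyme named here after its values were seen, measured 65.6 and 70.3 TPM. Birc2 and Birc3 lie beside each other on chromosome 9 and have counts that are not whole numbers, so reads may be shared between them. Fadd, the adaptor that joins death receptors to caspase 8, measured 8.09 and 8.54 TPM while Fas was near the limit of detection.

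Bak1 and Bik differed most between the pools. Of the 35 genes with a mean of at least 1 TPM, 27 had a log2 ratio within 0.25 of 0, as did 57.9% of the 12993 protein-coding genes tested, and 33 lay between -0.54 and 0.91, the 5th and 95th percentiles of those tested genes. Bak1 was the only one of the 35 at least 1.5-fold higher in replicate 1 (2.12-fold, log2 ratio 1.09, interval 0.78 to 1.42), where 9.83% of tested genes were. It was also past 2-fold, as were 4.16%. Bik was the only one at least 1.5-fold higher in replicate 2 (1.83-fold), where 4.19% of tested genes were, and 0 genes were 2-fold higher there, against 1.02%. The median log2 ratio was 0.00 over the 35 genes and 0.00 over all tested genes. With 2 pools of 1 condition there is no test between conditions, and these counts describe the 2 libraries.

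**Figure D4:**
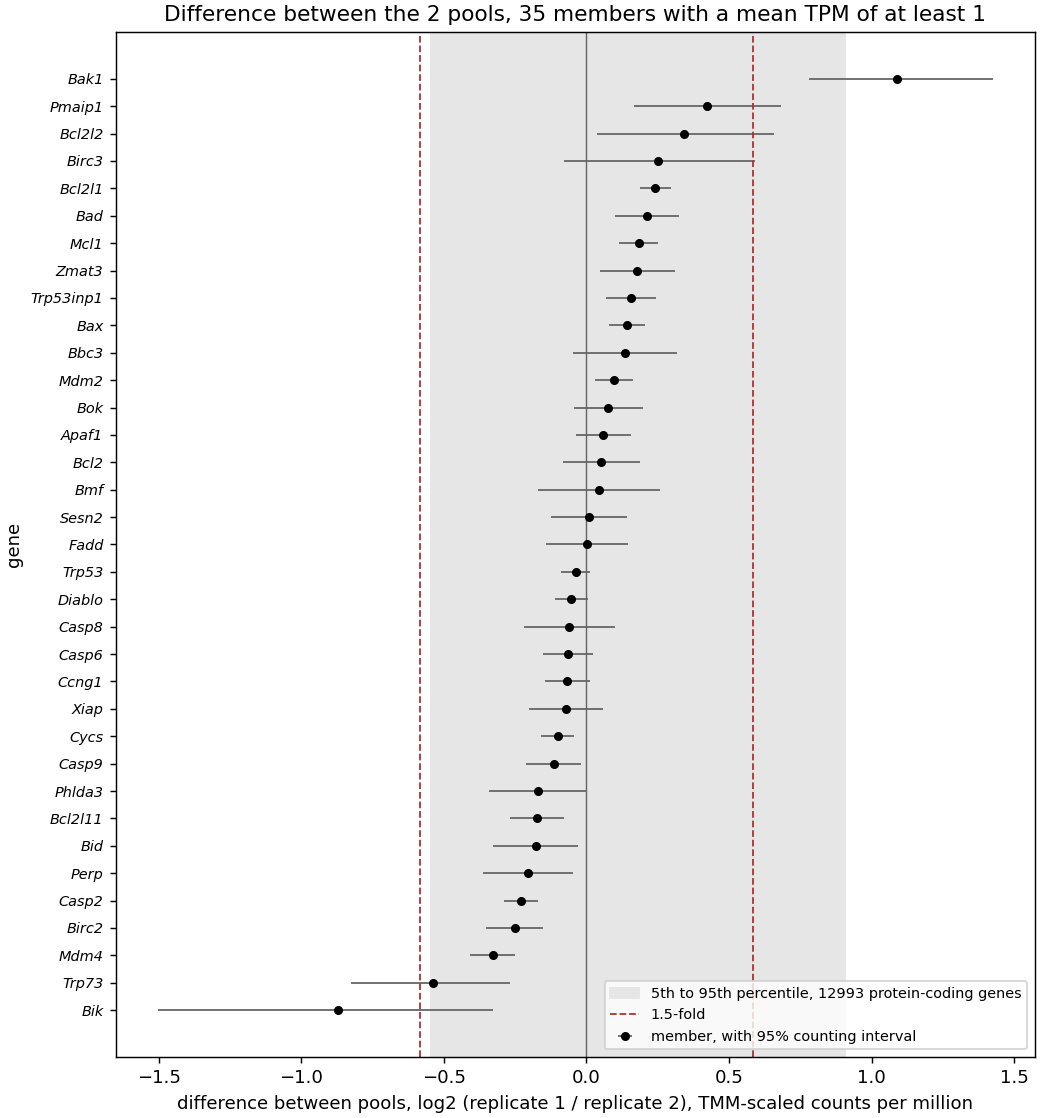
Log2 ratio of replicate 1 over replicate 2 for the 35 genes with a mean of at least 1 TPM, with 95% counting intervals; the grey band is the 5th to 95th percentile of 12993 protein-coding genes and dashed lines mark 1.5-fold. Bak1 lies right of the band and Bik left of it, and the rest lie inside.

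Other genes of the same pathways were also expressed. Of 20 further p53 targets, 19 were detected, led by Btg2 (93.6 TPM in replicate 1 and 84.4 TPM in replicate 2), Ei24 (76.3 and 81.1 TPM) and Aen (46.1 and 61.4 TPM), and 0 of the 19 was 1.5-fold apart; the median log2 ratio was -0.05. Of 19 regulators of p53, 18 were detected, led by Trp53bp1 (97.3 and 101 TPM), Daxx (58.1 and 69.6 TPM) and Rchy1 (45.3 and 45.6 TPM). The exception was Cdkn2a, the locus of the MDM2 inhibitor ARF, listed at 0.00 TPM in both libraries. Named after their values were seen, 3 of the 18 passed 1.5-fold in either direction, against 14.0% of all tested genes: Ppp1r13b was higher in replicate 1 (log2 ratio 0.69), and the checkpoint kinase genes Chek1 (-0.71) and Chek2 (-0.63) were higher in replicate 2. Cell cycle genes had a median log2 ratio of -0.34 between the same pools, and their part in the Chek1 and Chek2 values was not tested. Of 27 other apoptosis genes, 23 were detected and 0 was 1.5-fold apart, led by Bnip3l (348 and 400.1 TPM), a mitophagy receptor, Vdac3 (355 and 361 TPM), a mitochondrial channel, and Birc5, which encodes survivin, a mitotic protein of the same family as Xiap.

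RefSeq promoter sequences, from 250 bases before to 50 bases after a start, were found for 32 of the 37 genes. The consensus half-site of p53, identical on both strands, was searched without mismatches. It occurred in 6 of the 32 genes (18.8%), namely Bax, Birc2, Bmf, Ccng1, Mdm2 and Trp53. The share was 9.55% over 27025 genes with such a sequence. A gene counted if any of its sequences matched. The 32 genes had 45 sequences and the 27025 genes had 32851, so the shares rest on unlike numbers of sequences per gene. The 37 genes were also chosen by name, with p53 targets among them. Among the 6 genes grouped above as p53 targets, Ccng1 alone had a match, and no match was found for the p53 targets Bbc3 and Pmaip1. The 5 genes of the 37 without a promoter sequence could not be searched. The windows of Bax, Ccng1 and Mdm2 are shown because these are textbook p53 targets. The half-site is in capitals, all 3 lie on the minus strand, and the build is GRCm38.p6.
Bax, chr7:45467075-45467114: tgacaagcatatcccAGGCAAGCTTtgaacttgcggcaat
Ccng1, chr11:40755447-40755486: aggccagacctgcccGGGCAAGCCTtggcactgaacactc
Mdm2, chr10:117710920-117710959: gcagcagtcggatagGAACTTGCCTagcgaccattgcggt
These are matches of letters to a single half-site, and no second half-site beside it was required. Binding was not measured. Of the 3, Bax had the highest level and Ccng1 the lowest.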

How the data were processed

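Total RNA-seq of 2 pools of E10.5 mouse hindbrain was analysed from the deposited gene and transcript tables. Per the file headers, the authors' tables give an expected count, TPM, FPKM, posterior mean TPM with lower and upper bounds (their level is not in the header) and, for transcripts, the percent of the gene's abundance. The build was mm10 with annotation M4, per the deposited notes; the program is not given in the sources used here. Gene IDs were matched without version to GENCODE M21 (42462 of 43346). The genes, lists and tests were chosen with earlier results of these data known.

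Detection means TPM of at least 1 in both libraries. Ratios used expected counts rounded to whole numbers, TMM scaling and a prior count of 2 (edgeR 4.0.16, R 4.3.3), over genes averaging at least 1 TPM, and were tested on simulated data. Medians of levels are over log2(TPM + 0.1). Counting intervals are exact binomial (Clopper-Pearson, 95%, scipy 1.17.1) and cover counting error only, since reads without molecular identifiers are not independent molecules. With 1 group no p-value was computed. Alternatives were FPKM, posterior means, other thresholds, scaling by spike-ins, by total count or by size factors (DESeq2 1.42.0), prior counts of 0.5 and 5, and single libraries.

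Every one of the 37 genes was named. From each of the 3 wider pathway lists, the 3 highest by mean TPM were named; of their genes with a mean of at least 1 TPM, 0 was 2-fold apart. Each cell marker list is given by its median log2 ratio, and some also by sums and counts, with 4 hindbrain markers named. Of the 37, 13 have fractional counts, which shows reads divided between genes, and 15 overlap another annotated gene, 10 of them on the opposite strand. No test for differences, set test or permutation was run.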

Additional observations from a re-analysis of the deposited data

How the results depend on the processing

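No paired analysis was possible because the series has 1 group. Of 110 recomputed values for 20 results, 79 stayed within the spread between libraries, the counting interval or 1.5 times the count, and 31 moved. For role sums and transcript shares, leaving out either library could not exceed that spread by construction. Those values are among the 79 and carry no information on stability. The number of genes detected was 34 at an FPKM of at least 1, 35 with posterior mean TPM and 28 at a TPM of at least 5. With either library left out, the median level on the log2 scale was 3.96 to 3.98. It was 3.39 with FPKM, 4.08 with a pseudocount of 1, 4.08 over genes with a mean of at least 1 TPM, and 4.71 without length correction.

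Of the 5 role sums recomputed, each was lower in FPKM: 162 for effectors, 96.2 for pro-survival genes, 76.5 for BH3-only genes, 101 for caspases and 23.4 for inhibitors of apoptosis. The posterior mean gave 118 TPM for BH3-only genes.

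Spike-in scaling moved the median log2 ratio of the 35 genes to -0.82, close to its shift of all tested genes, and left 0 genes 1.5-fold higher in replicate 1 and 30 in replicate 2. The count in replicate 1 was 2 without a filter, where Fas joined on 9 and 4 counts. It was 0 with a mean of at least 5 TPM or with Ggnbp1 counts added to Bak1. That addition had to lower the Bak1 ratio, so its result carries no information on misassigned reads. The count in replicate 2 was 0 at a mean of at least 5 TPM and at 2-fold, and 2 on deposited TPM, where Trp73 joined.

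Posterior means gave a mean share of 54.9% for the Bak1 microexon form and 41.5% for the main Trp53 form. Counts in place of TPM gave 75.9% for the main Trp53 form, 76.5% for the longest Bcl2l11 form, and 68.5%, 80.9% and 85.0% for the main transcripts of Bcl2l1, Mdm2 and Mdm4, since counts are not corrected for length. Depth limits Fas, Hrk and Bik, each under 100 counts in both libraries.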
